A study of Homo sapiens with 30 samples.

Results

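MDM2, CDKN1A, GADD45A, SESN1, SESN2, FAS, TP53I3, RRM2B and ZMAT3, 9 target genes of the transcription factor p53, were followed through 2 histone marks in lymphoma cells. The genes were listed by name among 59792 annotated genes, and every consensus peak inside one of them or within 5000 bp of it was taken as belonging to it. This gave 18 of 21268 peaks of H3K4me3, the trimethylation of histone H3 lysine 4 that marks active promoters, and 26 of 63580 peaks of H3K27ac, the acetylation of lysine 27 found at active promoters and enhancers. The cells were OCI-Ly1, an established human diffuse large B-cell lymphoma line, studied by chromatin immunoprecipitation and sequencing (ChIP-seq). They received 150 nM or 500 nM of JIB-04, which inhibits histone demethylases of the Jumonji family, or the vehicle, 0.01% DMSO, in medium with serum. All 3 groups were the same line with no genetic change named in the labels, and the length of treatment is not given in the sources used here. Each mark had 2 libraries in each group, so every mean below is over n = 2. Nothing in the labels says that replicates came from separate cultures, and p-values therefore measure only the spread between these samples.

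p53 is activated by DNA damage and other stress, binds pairs of a short DNA element and switches on genes that stop the cell cycle, repair DNA, limit oxidative damage or lead to cell death. MDM2 is one of these targets and at the same time the ubiquitin ligase that removes p53, which closes a feedback loop. In lymphoma, loss of this pathway is a known route to unchecked growth and drug resistance. Removal of methyl groups from H3K4 is carried out in part by Jumonji enzymes of the KDM5 family, which JIB-04 is known to inhibit among others.

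The sequences below are the 250 bases before 5 RefSeq transcription starts (GRCh38.p14), chosen because they stand at the genes whose main H3K4me3 peaks rose most, CDKN1A and SESN2, and at 3 starts with matches to the p53 element. Capitals mark 10-base runs that match one unit of the p53 consensus element with at most 1 mismatch, the central C and G being kept. They run 5′ to 3′ on the strand of the gene. CDKN1A lies at chr6:36678464-36678713 (plus strand), SESN2 at chr1:28259268-28259517 (plus), the inner MDM2 start at chr12:68808767-68809016 (plus), the inner SESN1 start at chr6:109008989-109009238 (minus) and the innermost FAS start at chr10:88991181-88991430 (plus).
CDKN1A: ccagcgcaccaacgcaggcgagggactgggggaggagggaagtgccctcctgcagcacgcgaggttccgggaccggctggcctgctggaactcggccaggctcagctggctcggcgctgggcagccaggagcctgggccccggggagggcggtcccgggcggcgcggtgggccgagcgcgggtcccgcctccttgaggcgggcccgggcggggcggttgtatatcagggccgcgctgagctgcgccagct
SESN2: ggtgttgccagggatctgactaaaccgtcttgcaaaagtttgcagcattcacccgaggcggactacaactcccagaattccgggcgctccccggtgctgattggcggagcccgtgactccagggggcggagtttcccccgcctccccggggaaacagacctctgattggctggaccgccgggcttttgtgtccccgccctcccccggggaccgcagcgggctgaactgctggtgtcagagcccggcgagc
MDM2: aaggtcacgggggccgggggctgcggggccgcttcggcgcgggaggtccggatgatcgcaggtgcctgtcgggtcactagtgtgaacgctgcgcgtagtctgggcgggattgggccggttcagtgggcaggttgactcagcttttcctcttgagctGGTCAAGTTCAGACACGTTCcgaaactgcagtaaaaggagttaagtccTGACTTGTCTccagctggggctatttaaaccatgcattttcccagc
SESN1: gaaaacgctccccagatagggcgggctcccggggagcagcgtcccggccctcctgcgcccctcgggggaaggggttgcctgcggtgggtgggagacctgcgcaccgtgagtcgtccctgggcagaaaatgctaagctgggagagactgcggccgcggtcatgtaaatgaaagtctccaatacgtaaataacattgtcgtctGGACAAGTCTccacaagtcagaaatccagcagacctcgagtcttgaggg
FAS: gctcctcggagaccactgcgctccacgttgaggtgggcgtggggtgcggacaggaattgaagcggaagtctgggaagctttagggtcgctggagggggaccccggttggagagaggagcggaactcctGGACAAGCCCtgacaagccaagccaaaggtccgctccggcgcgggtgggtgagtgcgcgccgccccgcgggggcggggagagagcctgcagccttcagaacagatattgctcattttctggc

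Of the 9 genes, 7 had entries in the RefSeq promoter table, with 15 windows of 300 bases (250 before and 50 after the start), and 2, GADD45A and RRM2B, had none. A unit of the p53 consensus without mismatch was found on either strand in 2 of these windows, at position -49 of the inner SESN1 start and at -122 of the innermost FAS start. Such a unit occurred in 6.63% of all 35116 windows of the table. The inner MDM2 window held 3 units with 1 mismatch each, at -94, -84 and -46, the first pair directly adjacent, and this start is the one known as the p53-responsive promoter of the gene. At least 1 unit with up to 1 mismatch was present in 45.1% of all windows, a looser search that was added after the strict one had been seen. The windows of CDKN1A, SESN2 and TP53I3 held none, which says only that these letters are not within the window. CDKN1A had 29 CG dinucleotides and 4 matches to GGGCGG in its window, SESN2 had 25 and 2, whereas the median window had 14 CG and GGGCGG was present in 45.0% of windows. The motif CCAAT was present in 34.6% of windows and, of the windows shown, in those of SESN2 and MDM2 with 2 matches each and of SESN1 with 1. CATG, which lies within some p53 units, was present in 54.9% of windows and, of the windows shown, once each in those of MDM2 and SESN1, in neither case within a capitalised run. TATAA (20.4% of all windows) and CACGTG (7.26%) were found in no member window.

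The total count in peaks was 9686420 to 12327122 per H3K4me3 library and 4360660 to 5410292 per H3K27ac library. The counts at the highest peak of each gene, called its main peak here, were 486 to 2098 per library for H3K4me3 and 30 to 614 for H3K27ac, so the acetylation values carry more counting error. Values are in CPM, counts scaled to the library's reads in tested peaks after TMM, a scaling that assumes most peaks do not differ. The H3K4me3 libraries at 150 nM differed by less than the sampling noise (chi-square per degree of freedom 0.941), but so did a pair from different groups (0.962), and they were kept as 2 samples. Leaving out one or the other gave 6 or 7 called H3K4me3 peaks at 500 nM against 150 nM in place of the 8 reported below. H3K4me3 peaks lay near an end of 7 of 8 B-cell marker genes at 25.8 to 52.9 CPM per kb in DMSO, with MME the exception. They lay near 4 of 8 markers of other cell types, at 0.925 to 24.6 CPM per kb, with EPCAM highest, and LYZ and CSF1R had no peak of either mark there. For H3K27ac the lists overlapped, with 8 of 8 B-cell markers at 6.19 (MME) to 45.3 CPM per kb and 4 of 8 others at 3.65 to 28.0, the highest at EPCAM (28.0) and CD2 (23.1).

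At 500 nM, H3K4me3 rose at peaks of 4 of the 9 genes, CDKN1A, SESN2, ZMAT3 and FAS, and fell at peaks of RRM2B. By far the highest rise among main peaks was at CDKN1A, at 2.13-fold, followed by SESN2 at 1.29-fold. Of the 16 member peaks with enough counts to be tested, 5 were higher and 2 lower than in DMSO, and 9 did not pass. Calls were by edgeR's quasi-likelihood test at an adjusted p under 0.05 over all peaks. The 5 include a small ZMAT3 peak that passed the count filter only through the 500 nM libraries, so its call is no evidence of a rise. Of all 20402 tested H3K4me3 peaks, 39.4% passed the same test, 20.7% higher and 18.7% lower, so a call by itself was common. The median log2 fold change of the members was 0.0025 against -0.0063 over all tested peaks. The libraries did not overlap at 6 member peaks above and 4 below DMSO, against 33.7% and 34.3% of all peaks. The 2 untested peaks were small ones inside MDM2 (68811702-68811963, at most 1.19 CPM) and RRM2B (102230604-102230983, at most 1.17 CPM).

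**Figure D1:**
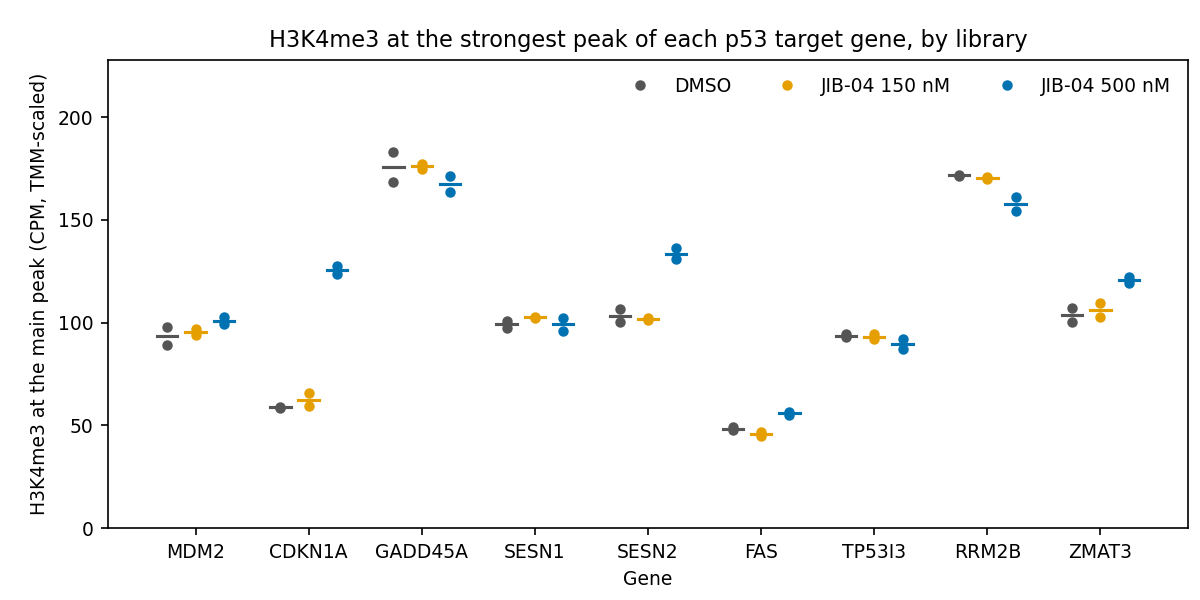
H3K4me3 in CPM (vertical axis, from 0) at the main peak of each of the 9 genes (horizontal axis). Points are single libraries of DMSO, 150 nM and 500 nM JIB-04, and short lines are means of 2. CDKN1A at 500 nM (124 and 127) stands clear of DMSO (58.5 and 59.0), SESN2, ZMAT3 and FAS are higher by less, and MDM2 and GADD45A differ little.

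CDKN1A encodes p21, the cyclin-dependent kinase inhibitor through which p53 stops the cell cycle. Its single H3K4me3 peak (chr6:36678354-36681213, over the RefSeq start and also over the noncoding gene DINOL) measured 58.5 and 59.0 CPM in DMSO, 65.5 and 59.5 CPM at 150 nM, and 124 and 127 CPM at 500 nM. Both 500 nM libraries lay far above the other 4, which lay close together. Compared with DMSO, the 500 nM libraries differed by a log2 fold change of 1.09 (SE 0.0463, 95% interval 1.00 to 1.19, edgeR adjusted p = 4.75e-28), a 2.13-fold difference. It was higher than at 93.1% of all tested peaks and, among the 4080 peaks of like abundance, than at 99.95%, where the median change was -0.04. Against 150 nM the log2 fold change was 1.00 (SE 0.0459, edgeR adjusted p = 1.68e-26). These 2 comparisons share the 500 nM libraries and are not separate evidence. Under the 14 refits with other scalings, filters, tools or libraries, the change against DMSO stayed between 1.07 and 1.14 and past the threshold.

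GADD45A, a stress sensor of DNA repair and growth arrest, carried the densest H3K4me3 of the 9 genes and did not pass the test. Its only peak (chr1:67684342-67687518) measured 169 and 183 CPM in DMSO, 175 and 177 CPM at 150 nM, and 163 and 171 CPM at 500 nM. The 500 nM and DMSO libraries overlapped. The log2 fold change was -0.07 (SE 0.036, 95% interval -0.14 to 0.0039, edgeR adjusted p = 0.128). Without DMSO replicate 1 it was -0.13 and without 500 nM replicate 2 it was -0.10, both past the threshold by edgeR (adjusted p = 0.00851 and 0.0415).

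SESN2 and SESN1 encode sestrins, stress proteins that restrain the growth kinase complex mTORC1 and support the removal of peroxides. The paralogs differed in their H3K4me3 values. The SESN2 peak (chr1:28258784-28261775) measured 100 and 106 CPM in DMSO, 102 and 101 CPM at 150 nM, and 131 and 136 CPM at 500 nM. The 500 nM libraries were above all others. The log2 fold change against DMSO was 0.37 (SE 0.0401, edgeR adjusted p = 2.12e-11) and against 150 nM 0.39 (edgeR adjusted p = 4.54e-12), and both passed under all 14 refits. The change was above that of 99.7% of peaks of like abundance, whose median was -0.06.

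SESN1 had a peak at each of its promoters, and neither passed. The outer one (chr6:109093462-109096579), which also overlaps the divergent gene CEP57L1, measured 97.2 and 101 CPM in DMSO, 103 and 102 CPM at 150 nM, and 96.0 and 102 CPM at 500 nM, a log2 fold change of -0.0016 (95% interval -0.09 to 0.08). The inner one (chr6:109008642-109010494), which holds the p53 unit shown above and also overlaps ARMC2, measured 70.9 and 72.1 CPM in DMSO, 71.5 and 71.7 CPM at 150 nM, and 72.7 and 70.7 CPM at 500 nM, a log2 fold change of 0.0067 (95% interval -0.09 to 0.10). The 500 nM and DMSO libraries overlapped at both, while at the outer peak both 150 nM libraries lay above the other 4, and both intervals lie below that of SESN2 (0.29 to 0.45). The difference between the paralogs was not itself tested.

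FAS encodes the death receptor CD95, and TP53I3 (PIG3) an oxidoreductase linked to oxidative stress. The main FAS peak (chr10:88990238-88992545, over 3 RefSeq starts and also over ACTA2 and FAS-AS1) measured 49.0 and 47.7 CPM in DMSO, 44.7 and 46.9 CPM at 150 nM, and 56.5 and 55.1 CPM at 500 nM. The 500 nM libraries lay above the other 4. The log2 fold change was 0.21 against DMSO (SE 0.057, edgeR adjusted p = 0.00267) and 0.29 against 150 nM (edgeR adjusted p = 5.27e-05). The change against DMSO was above that of only 72.3% of peaks of like abundance. The call against DMSO was lost with DESeq2 (0.21, adjusted p = 0.139) and without 500 nM replicate 1 (0.19, edgeR adjusted p = 0.0508). A small second peak in the gene (chr10:88974860-88975635) was at 1.95 to 3.23 CPM in all libraries and did not pass.

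TP53I3 had 2 H3K4me3 peaks, one at each end of the gene, and both were slightly lower at 500 nM without passing. The peak over its RefSeq start (chr2:24083459-24085353, shared with FAM228B) measured 61.6 and 63.3 CPM in DMSO, 59.3 and 61.1 CPM at 150 nM, and 56.6 and 58.7 CPM at 500 nM (log2 fold change -0.11, SE 0.0532, edgeR adjusted p = 0.0913). The higher peak at the other end (chr2:24075330-24077975) also overlaps SF3B6 and FAM228B, so its reads cannot be given to one gene. There the values were 94.6 and 92.7 CPM in DMSO, 94.2 and 91.8 CPM at 150 nM, and 86.9 and 92.0 CPM at 500 nM (log2 fold change -0.07, edgeR adjusted p = 0.205). At both peaks the 500 nM libraries lay below the DMSO libraries.

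RRM2B, the p53-induced subunit of ribonucleotide reductase that supplies nucleotides for repair, was the only one of the 9 genes with H3K4me3 peaks called lower. Its main peak (chr8:102235944-102240852) measured 171 and 172 CPM in DMSO, 171 and 170 CPM at 150 nM, and 154 and 161 CPM at 500 nM (log2 fold change -0.12, SE 0.0345, edgeR adjusted p = 0.00283). A weaker peak inside the gene (chr8:102231945-102233992) measured 8.25 and 7.27 CPM in DMSO, 8.33 and 8.75 CPM at 150 nM, and 5.10 and 4.90 CPM at 500 nM (log2 fold change -0.64, SE 0.182, edgeR adjusted p = 0.00373). At both, the 500 nM libraries lay below the other 4, and the relative fall was larger at the weaker peak. Of the peaks of like abundance, 22.7% had a lower log2 fold change than the main peak and 8.55% than the weaker one. DESeq2 kept neither call (adjusted p = 0.131 and 0.0952). The main call was also lost with loess offsets (log2 fold change -0.05) and without 500 nM replicate 1 (-0.09), and the other without DMSO replicate 1 (-0.54).

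Another RRM2B peak, 4597 bp beyond the gene (chr8:102196893-102199904), measured 65.8 and 58.5 CPM in DMSO, 67.5 and 67.9 CPM at 150 nM, and 59.4 and 54.4 CPM at 500 nM. It passed against 150 nM (log2 fold change -0.24, edgeR adjusted p = 3.13e-04) and not against DMSO (-0.13, edgeR adjusted p = 0.065). Against 150 nM the call was lost with DESeq2 (adjusted p = 0.0546). Without DMSO replicate 2 or without 500 nM replicate 1 the comparison with DMSO passed as well, at -0.21 and -0.20.

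ZMAT3, a zinc finger RNA-binding protein that acts in p53-dependent growth control, rose at its main peak (chr3:179069558-179072558). A very small peak beside it was also called higher. The main peak measured 100 and 107 CPM in DMSO, 103 and 109 CPM at 150 nM, and 119 and 122 CPM at 500 nM. All libraries at 500 nM were above the rest, with a log2 fold change of 0.22 against DMSO (SE 0.0417, edgeR adjusted p = 1.51e-05) that passed under all 14 refits. The change at the main peak was above that of 98.95% of peaks of like abundance. The small peak (chr3:179068934-179069316) rested on 5, 3, 4, 5, 16 and 9 reads in the 6 libraries, DMSO first and 500 nM last. It passed the count filter only through the 500 nM libraries, so a rise was part of its selection and the call is no evidence of one. Its log2 fold change of 1.67 (SE 0.545, edgeR adjusted p = 0.0116) was lost with loess offsets (0.99), with DESeq2 (adjusted p = 0.21), and without DMSO replicate 1, DMSO replicate 2 or 500 nM replicate 1 (1.34 to 1.93).

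MDM2 lay at the threshold. Its broad H3K4me3 peak (chr12:68807223-68811429) covers all 4 RefSeq starts, so the constitutive outer and the p53-responsive inner promoter cannot be told apart in these counts. It measured 97.8 and 89.1 CPM in DMSO, 94.2 and 97.0 CPM at 150 nM, and 99.3 and 102 CPM at 500 nM. The 500 nM libraries were above all others, though the lower of them only just. The log2 fold change was 0.10 (SE 0.0444, 95% interval 0.01 to 0.19, edgeR adjusted p = 0.0582), above that of 95.7% of peaks of like abundance. It passed with scaling by total count (0.14), with loess offsets (0.16), with a mean count of at least 50 (0.13) and without DMSO replicate 1 (0.17). The interval lies far below the change at CDKN1A.

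**Figure D2:**
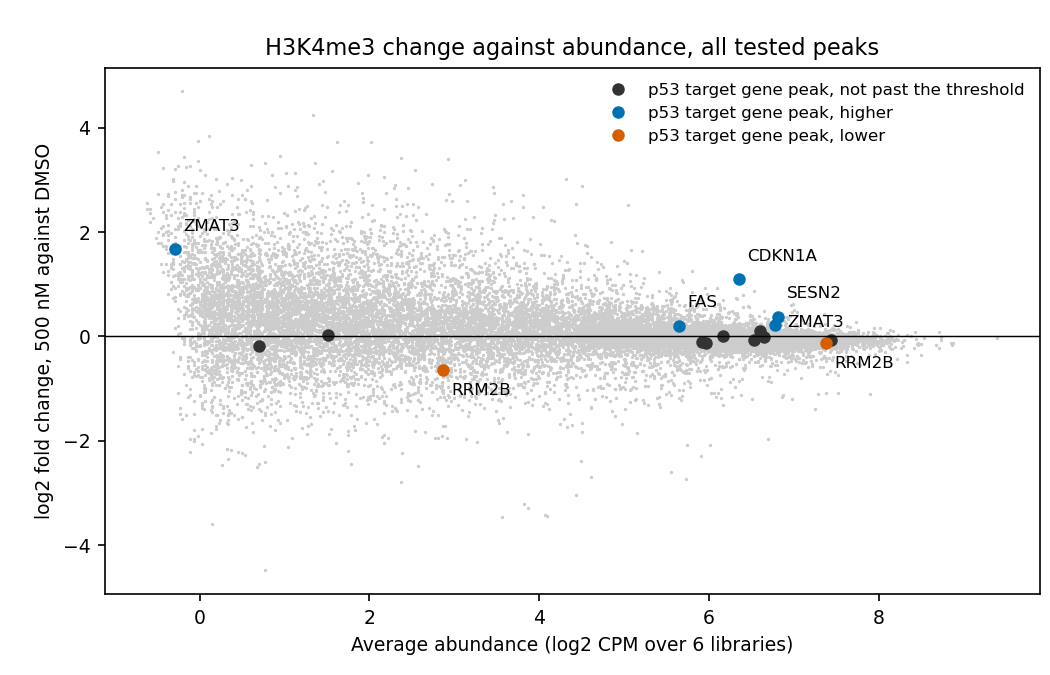
Log2 fold change of H3K4me3 at 500 nM against DMSO (vertical axis) over average abundance in log2 CPM (horizontal axis). Grey points are all 20402 tested peaks, dark points the member peaks that did not pass, blue the 5 higher and orange the 2 lower. CDKN1A at 1.09 sits at the upper edge of the cloud at its abundance. The small ZMAT3 peak at 1.67, tested only through its 500 nM counts, sits above 91.4% of the peaks in the lowest abundance bin.

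Over all tested H3K4me3 peaks, the change at 500 nM varied with abundance. With peaks ranked into 5 equal bins by abundance, the bins' median log2 fold changes against DMSO ran from 0.44 in the lowest and 0.20 in the next to -0.06 in the highest. Small peaks could pass the count filter through the 500 nM libraries alone, and how far this raised the lowest medians was not tested. The rises at CDKN1A, SESN2, ZMAT3 and FAS came at main peaks in the middle to highest bins (medians 0.02 to -0.06), and with loess offsets that remove this trend the main peaks of all 4 genes still passed. The small ZMAT3 peak, in the lowest bin, lost its call with these offsets. So did the RRM2B main peak, in the highest bin (log2 fold change -0.05, edgeR adjusted p = 0.213). MDM2, also in the highest bin, gained a call (0.16, edgeR adjusted p = 0.00361). The part of abundance in these changes was not tested.

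Against 150 nM, the 500 nM libraries gave 8 called H3K4me3 peaks among the members, 5 higher and 3 lower by edgeR, with 39.2% of all tested peaks called (20.5% higher and 18.6% lower). They were the 7 peaks called against DMSO and the RRM2B peak beyond the gene. The 5 higher again include the small ZMAT3 peak, which was tested only through its 500 nM counts. The non-overlapping peaks numbered 7 above and 7 below, against 34.4% of all peaks in each direction. At 150 nM against DMSO, edgeR called 0 member peaks of 16 and 0.0% of all peaks. Of the members 1 had an unadjusted p under 0.05, as had 4.66% of all peaks, and DESeq2 also called 0. CDKN1A at 150 nM was within 0.09 of DMSO on the log2 scale (SE 0.0541, edgeR adjusted p = 1), its 2 libraries at 65.5 and 59.5 CPM.

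Per kb of peak, the order of H3K4me3 levels in DMSO was led by GADD45A at 55.3 ± 3.20 CPM per kb (SD, n = 2). TP53I3 (35.4 ± 0.512), RRM2B (35.0 ± 0.0977), SESN2 (34.6 ± 1.42), ZMAT3 (34.5 ± 1.60) and SESN1 (31.8 ± 0.822) followed, and the first 4 of these neighbours differ by no more than their SDs. The TP53I3 value is of the peak shared with SF3B6 and FAM228B, and its peak over the RefSeq start was at 32.9 ± 0.630. MDM2 (22.2 ± 1.47), FAS (21.0 ± 0.385) and CDKN1A (20.5 ± 0.140) came last, FAS and CDKN1A differing by slightly more than their SDs. At 500 nM, CDKN1A had moved from place 9 to place 3 at 43.9 ± 0.922 CPM per kb, beside SESN2 at 44.6 ± 1.29, and GADD45A stayed first at 52.7 ± 1.81. FAS (24.2 ± 0.426) and MDM2 (24.0 ± 0.543) were then lowest. CDKN1A thus moved from the level of FAS to that of SESN2, and SESN2, CDKN1A and ZMAT3 (40.2 ± 0.737) all stood ahead of TP53I3 (33.8 ± 1.37) and RRM2B (32.1 ± 0.998).

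**Figure D3:**
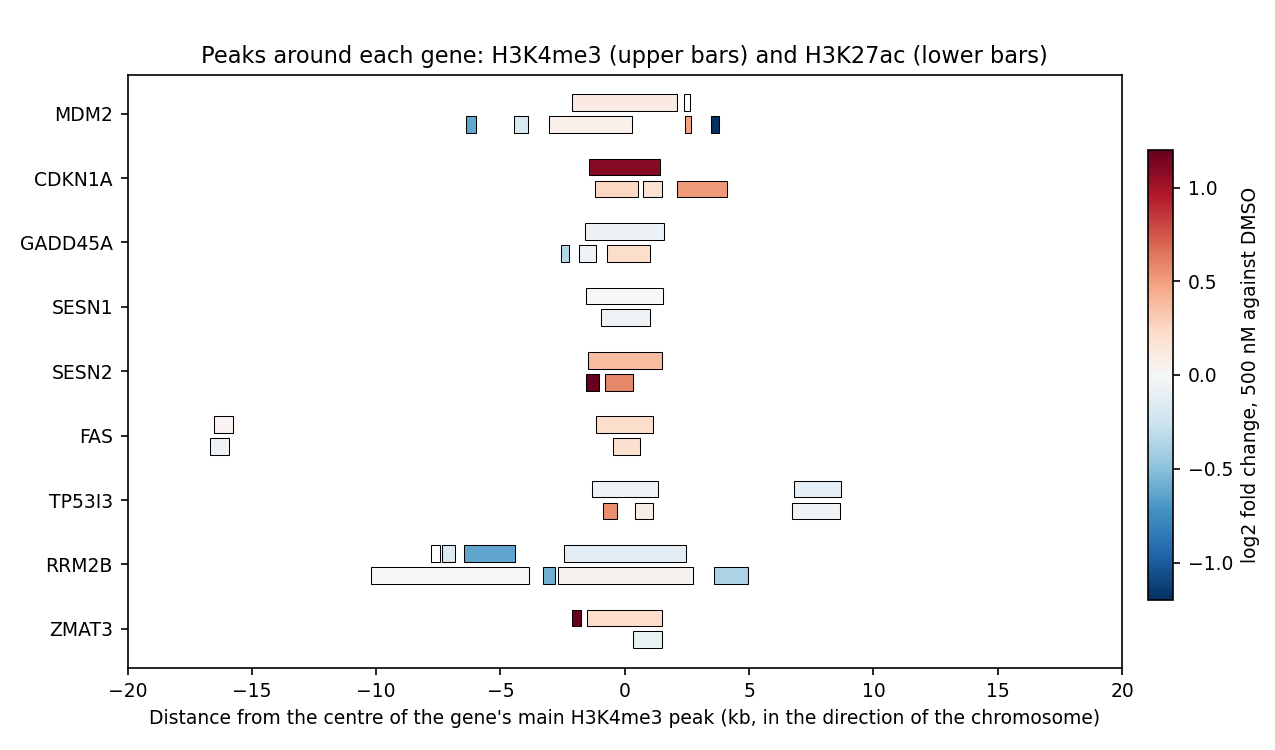
Peaks of each gene by distance in kb from the centre of its main H3K4me3 peak (horizontal axis), H3K4me3 above and H3K27ac below for each gene. Colour gives the log2 fold change at 500 nM against DMSO (red higher, blue lower, colours end at 1.2), and white bars were not tested. SESN1's inner pair of peaks lies outside the range drawn. CDKN1A shows a strong rise of H3K4me3 over paler H3K27ac bars, and SESN2 is red in both marks.

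For H3K27ac the only called member peaks were at SESN2, each call was lost in at least 1 refit given below, and no peak of the other 8 genes passed the test. All 26 member peaks could be tested. At 500 nM against DMSO edgeR called 1 of them, higher, with 0.923% of all 54037 tested peaks called (0.692% higher and 0.231% lower). Against 150 nM it called 2, both higher, with 1.27% called (1.09% higher and 0.185% lower). A further 4 members in each comparison had an unadjusted p under 0.05 without passing, as had, called ones included, 11.5% of all peaks against DMSO and 10.2% against 150 nM. The libraries did not overlap at 6 member peaks above and 4 below DMSO (22.4% and 22.2% of all peaks), and at 7 above and 4 below 150 nM (19.3% of all peaks each way). Single changes against DMSO ran from -1.36, at a peak inside MDM2 of at most 3.01 CPM, to 1.19. The members' median log2 fold change against DMSO was 0.03, and that of all peaks -0.0040.

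One called peak lies before the SESN2 start and the other covers it. The one before it (chr1:28258731-28259230, 288 bp from the gene) measured 2.99 and 5.01 CPM in DMSO, 3.40 and 3.39 CPM at 150 nM, and 9.04 and 9.58 CPM at 500 nM, from 13, 25, 16, 18, 48 and 49 reads. The 500 nM libraries were well above the others. The log2 fold change was 1.19 against DMSO (SE 0.297, edgeR adjusted p = 0.0287) and 1.45 against 150 nM (SE 0.303, edgeR adjusted p = 0.00303). The call against DMSO was lost without any one of the DMSO and 500 nM libraries (0.88 without DMSO replicate 1, 1.63 without DMSO replicate 2, 1.24 and 1.15 without 500 nM replicate 1 or 2), and DESeq2 gave this peak no adjusted p there. Against 150 nM DESeq2 did not call it (adjusted p = 0.236).

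The peak over the SESN2 start (chr1:28259482-28260623) measured 17.7 and 14.2 CPM in DMSO, 11.9 and 13.4 CPM at 150 nM, and 22.0 and 25.6 CPM at 500 nM. The 3 groups did not overlap, with 150 nM lowest. It passed against 150 nM (log2 fold change 0.91, SE 0.184, edgeR adjusted p = 0.00195) and not against DMSO (0.58, SE 0.179, edgeR adjusted p = 0.116). Against 150 nM the call was lost with DESeq2 (adjusted p = 0.121) and without 500 nM replicate 2 (0.79). Against DMSO it passed in the fit of the 4 libraries of the contrast (0.58, edgeR adjusted p = 0.0108) and in the fits without 150 nM replicate 1 or 2 (0.59 each).

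At CDKN1A, whose main H3K4me3 peak rose most among the main peaks, none of the 3 H3K27ac peaks passed. The peak over the start (chr6:36678600-36680318) measured 24.8 and 28.3 CPM in DMSO, 26.4 and 26.2 CPM at 150 nM, and 27.9 and 35.8 CPM at 500 nM. These libraries overlapped (log2 fold change 0.26, 95% interval -0.05 to 0.57, edgeR adjusted p = 0.548). The interval lies below the 1.00 that bounds the H3K4me3 change from below, though the marks were measured in separate libraries and the difference between them was not tested. A peak further into the gene (chr6:36681887-36683913) had 26.7 and 20.9 CPM in DMSO, 24.4 and 28.6 CPM at 150 nM, and 34.7 and 33.2 CPM at 500 nM. Its 500 nM libraries were the highest, but the change missed the threshold (0.52, SE 0.155, edgeR adjusted p = 0.0989). This peak is named after its values were seen, because it passed in the fit of the contrast's 4 libraries alone (0.52, edgeR adjusted p = 0.00478) and without 150 nM replicate 1 or 2 (edgeR adjusted p = 0.00495 and 0.00619).

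**Figure D4:**
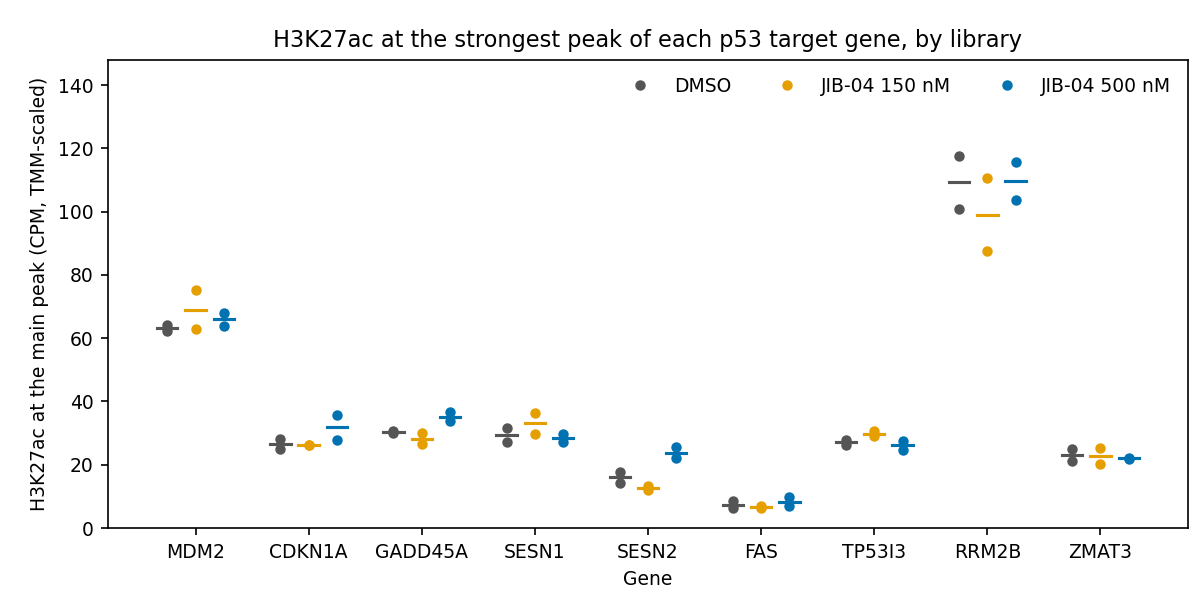
H3K27ac in CPM (vertical axis, from 0) at the main peak of each of the 9 genes (horizontal axis), points for single libraries and lines for means of 2. SESN2 at 500 nM (22.0 and 25.6) lies above DMSO and 150 nM, CDKN1A libraries overlap, and RRM2B is highest and widely spread.

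The main H3K27ac peaks of the other 7 genes did not pass. MDM2 (chr12:68806284-68809600) measured 64.1 and 62.4 CPM in DMSO, 62.9 and 75.2 CPM at 150 nM, and 63.9 and 68.1 CPM at 500 nM (log2 fold change 0.06, edgeR adjusted p = 0.898). GADD45A (chr1:67685206-67686954) measured 30.1 and 30.7 CPM in DMSO, 26.6 and 30.0 CPM at 150 nM, and 33.7 and 36.6 CPM at 500 nM (0.21, edgeR adjusted p = 0.621). The log2 fold changes at 500 nM against DMSO were -0.05 at SESN1, 0.19 at FAS, -0.05 at TP53I3, 0.0076 at RRM2B and -0.08 at ZMAT3, and none passed by edgeR. The RRM2B main peak against 150 nM passed only without 150 nM replicate 1 (0.32, edgeR adjusted p = 0.0224). The 95% intervals at ZMAT3 (-0.41 to 0.26) and FAS (-0.34 to 0.72) contain the change of the same gene's main H3K4me3 peak. A difference between the marks was therefore not detectable at ZMAT3 and FAS. The main RRM2B peaks of the marks do not overlap. The H3K27ac peak over the main H3K4me3 peak changed by 0.05 (95% interval -0.155 to 0.249), a range that holds the H3K4me3 change of -0.12. The main RRM2B H3K27ac peak (95% interval -0.21 to 0.22) covers the weaker H3K4me3 peak, whose change of -0.64 (-1.0 to -0.274) lies outside. It also covers a smaller H3K4me3 peak at 102231047, whose change of -0.18 lies inside. No test compared the marks directly.

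**Figure D5:**
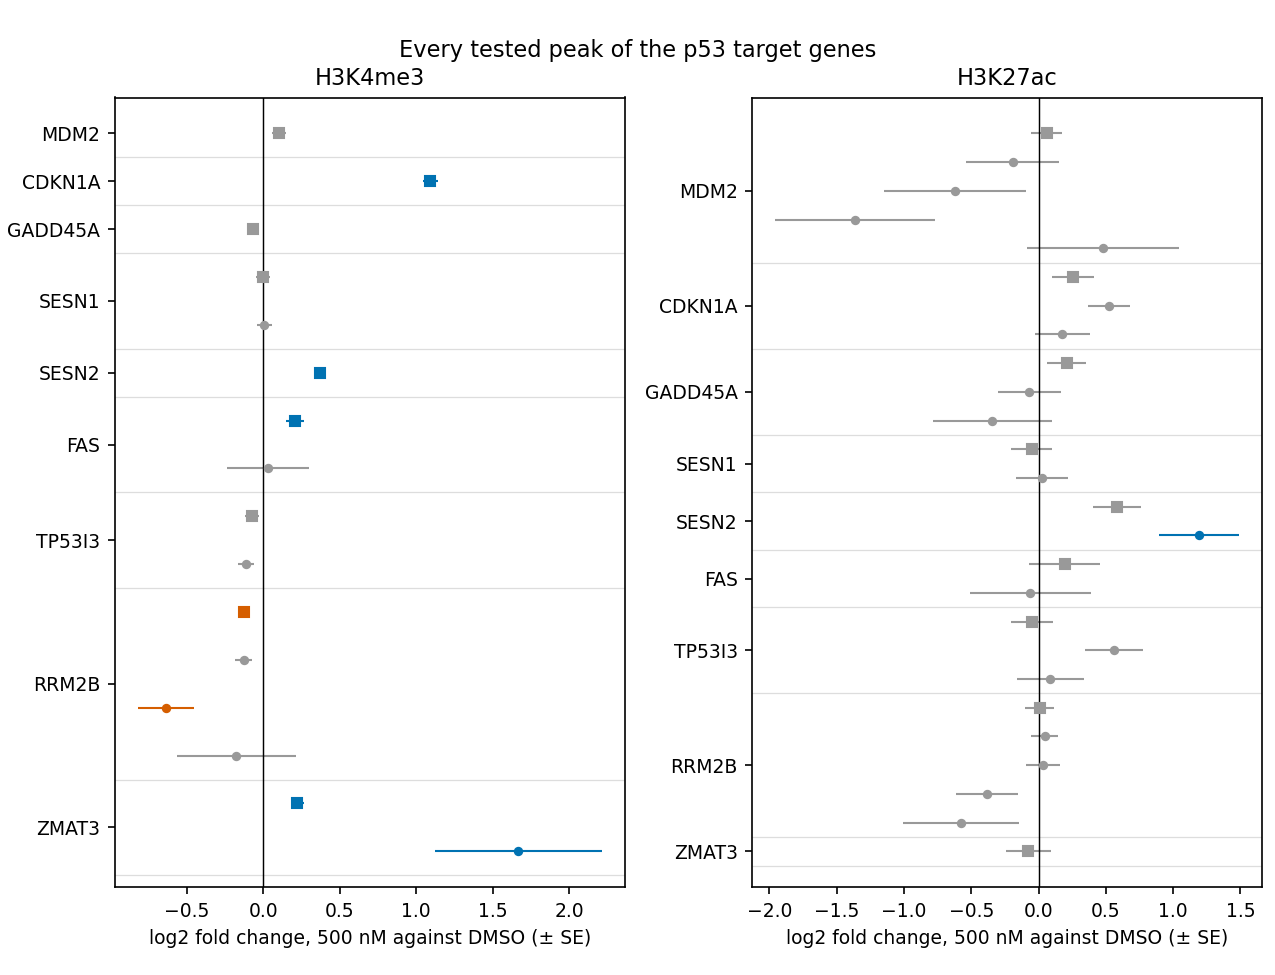
Log2 fold change at 500 nM against DMSO with its SE (horizontal axis) for every tested member peak, grouped by gene (vertical axis), H3K4me3 on the left and H3K27ac on the right. Squares are main peaks and circles the others, blue is higher, orange lower and grey not past the threshold. Error bars are far shorter for H3K4me3, where 7 peaks passed, than for H3K27ac, where 1 passed.

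Per kb, H3K27ac in DMSO ran from 19.9 ± 2.39 CPM at ZMAT3 and 19.1 ± 0.376 at MDM2 to 6.74 ± 1.48 at FAS (SD, n = 2). Between them stood GADD45A (17.4), RRM2B (17.2), CDKN1A (15.5), SESN1 (15.1), SESN2 (14.0) and TP53I3 (13.9), and in the whole order only MDM2 and GADD45A, and TP53I3 and FAS, were neighbours that differed by more than their SDs. SESN2 went from 14.0 ± 2.14 CPM per kb in DMSO and 11.1 ± 0.919 at 150 nM to 20.9 ± 2.22 at 500 nM, then first in the order ahead of GADD45A (20.1 ± 1.15) by less than its SD. At 150 nM against DMSO, edgeR called 0 of the 26 member peaks and 0.00185% of all, 1 member had an unadjusted p under 0.05 as had 3.94% of all peaks, and DESeq2 called 0 members.

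Other genes of the pathway were taken from 3 lists. The 15 regulators, kinases, ligases and cofactors that act on p53, had 31 tested H3K4me3 peaks, of which 3 were higher and 5 lower at 500 nM than in DMSO (9.68% and 16.1%, median log2 fold change -0.06), below the 39.4% called over all peaks. USP7, the deubiquitinase of MDM2 and p53, rose at a small peak from 1.38 ± 0.703 to 2.76 ± 0.291 CPM (0.94, edgeR adjusted p = 0.0203), while its large peak fell from 176.8 ± 10.4 to 157 ± 0.782 CPM (-0.17, edgeR adjusted p = 8.2e-05). MDM4, the partner of MDM2, rose at a small peak from 3.11 ± 0.226 to 5.30 ± 0.882 CPM (0.75, edgeR adjusted p = 0.00814), while its large peak fell from 77.3 ± 3.17 to 71.4 ± 0.684 CPM (-0.12, edgeR adjusted p = 0.049). The ligase COP1 fell from 168 ± 2.53 to 143.5 ± 2.32 CPM (-0.23, edgeR adjusted p = 3.81e-07). CDKN2A, which encodes the MDM2 inhibitor ARF among other products, fell at a peak (chr9:21973587-21976251) from 80.2 ± 4.37 to 69.4 ± 1.03 CPM (-0.21, edgeR adjusted p = 3.33e-04). Which start of CDKN2A this peak covers was not examined. The lower peaks numbered 8 without DMSO replicate 2 and with no filter on low counts, the higher ones 1 without 500 nM replicate 2, and DESeq2 called 1 higher and 2 lower.

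The 39 further target genes had 50 tested H3K4me3 peaks at 34 genes, with 12 higher and 10 lower (24.0% and 20.0%, median -0.03), close to the shares over all peaks. The largest rises were at small peaks. The stress cytokine GDF15 went from 0.278 ± 0.162 to 1.89 ± 0.507 CPM (2.75, edgeR adjusted p = 2.71e-05). PHLDA3, an inhibitor of AKT, went from 0.548 ± 0.197 to 2.53 ± 1.05 CPM (2.18, edgeR adjusted p = 5.16e-05). Both peaks, counted among the 12 higher, passed the count filter only through the libraries at the higher JIB-04 dose. A rise was thus part of their selection, and their calls are no evidence of one. The largest falls were at CD82, a tetraspanin, from 19.5 ± 0.672 to 9.24 ± 0.643 CPM (-1.08, edgeR adjusted p = 4.05e-11), and at the death receptor gene TNFRSF10A, from 13.1 to 8.51 ± 0.379 CPM (-0.62, edgeR adjusted p = 2.33e-04). With loess offsets 15 were higher and 6 lower, with 3553 higher and 3376 lower of all 20402 peaks, and with DESeq2 8 and 4, with 1999 and 1480 of all.

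The 10 cell-cycle genes that are repressed when p53 is active, CHEK1 among them as also among the regulators, had 16 tested H3K4me3 peaks, with 1 higher and 9 lower (6.25% and 56.2%, median -0.12), the lower ones at 8 genes, against 18.7% lower over all peaks. E2F1, which drives entry into S phase, fell from 125.8 ± 6.04 to 89.3 ± 3.87 CPM (-0.49, edgeR adjusted p = 1.58e-14), and MYBL2 from 45.5 ± 4.22 to 30.5 ± 0.917 CPM (-0.58, edgeR adjusted p = 6.52e-10). The mitotic kinase PLK1 had the rising peak, from 8.81 ± 0.454 to 11.8 ± 1.98 CPM (0.41, edgeR adjusted p = 0.0221), while its other called peak fell from 150.3 ± 0.223 to 136 ± 8.13 CPM (-0.15, edgeR adjusted p = 0.00107). The number of lower peaks was 7 with scaling by total count, 6 with loess offsets and 4 with DESeq2. Of all 20402 tested peaks, 3819 were lower in the main fit. That number was 2791 with scaling by total count, 3376 with loess offsets and 1480 with DESeq2. The part of abundance in this count was not tested.

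For H3K27ac, edgeR called 0 of 81, 90 and 28 tested peaks of the regulators, further targets and repressed genes at 500 nM against DMSO, with 7, 10 and 3 at an unadjusted p under 0.05, where 11.5% of all peaks had such a p and 0.923% were called. DESeq2 also called 0 in each list, leaving 42, 36 and 11 peaks without an adjusted p.

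Taking only peaks that overlap a gene, in place of those within 5000 bp, gave 0 and 1 called H3K27ac peaks against DMSO and 150 nM in place of 1 and 2, and 7 and 7 H3K4me3 peaks in place of 7 and 8. The last H3K27ac peaks inside it lay 4817 bp from MDM2 (2.65 CPM in DMSO, 1.72 CPM at 500 nM) and 4754 bp from RRM2B (46.8 and 47.8 CPM), and the nearest one outside lay 5846 bp from MDM2 (2.51 and 2.39 CPM). For H3K4me3 the last inside was the RRM2B peak at 4597 bp, and the nearest outside were 11472 bp from SESN2 (22.9 and 18.4 CPM) and 13236 bp from MDM2 (13.1 and 6.11 CPM).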

How the data were processed

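ChIP-seq libraries of H3K4me3 and H3K27ac were analysed, 12 of the 30 in the series. The other libraries (input, H3K9me2 and H3K9me3, 6 each) were not analysed here. The authors deposited raw read counts per consensus peak, 1 table per mark. Per the file headers, they were made with featureCounts 2.0.1 without regard to strand, with a read allowed in several peaks when a fraction of at least 0.2 of it lay there. Whether 1 count is a read or a fragment is uncertain, because the headers carry the paired-read option although the labels describe 50 bp reads from single ends. Per the submitters' processing notes, GRCh38, Trim Galore 0.6.7, BWA 0.7.17-r1188, Picard 2.27.4, MACS2 2.2.7.1, deepTools 3.5.1 and edgeR 3.42.4 were used, with no roles given. Coordinates have 1 added to the deposited start, since the lowest deposited start is 0. Gene positions and promoters are from RefSeq (GRCh38.p14).

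Counts of all peaks were fitted with edgeR 4.0.16 (R 4.3.3): filterByExpr by group, TMM, 6 libraries of a mark in 1 fit, quasi-likelihood test, Benjamini-Hochberg adjustment over all tested peaks of a comparison, threshold 0.05. SEs were derived from the F statistic, and the script was tested on simulated data. Groups came from the sample titles. CPM are relative to reads in tested peaks, so a change common to all peaks is not measured. Intervals and SEs leave out PCR duplication. Alternatives were median-of-ratios, total-count and loess scaling, 2 other count filters, a replicate block, the contrast's 4 libraries alone, DESeq2 1.42.0, leaving out each library, a term for a split of the H3K27ac libraries by reads on unplaced contigs, and distances of 1000 bp or overlap only. Named peaks were each gene's main peak (highest mean CPM) and every called member peak. Of each other list the 2 largest called rises and falls were named. Members, lists and the contig split were chosen with earlier results of these data known. The name of 1 further annotated gene that overlaps a member peak is not reported here. Figures used matplotlib 3.10.9.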

Additional observations from a re-analysis of the deposited data

How the results depend on the processing

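Of 943 values of named peaks recomputed under an alternative, 31 lost the threshold, 17 gained it, 0 called values changed sign, 40 values past the threshold in neither fit did, and 8 of 18 called values passed under every alternative that gave a value. With 2 libraries a group and 30 to 614 reads in main H3K27ac peaks, single acetylation calls rest on few reads. The number of called H3K4me3 member peaks at 500 nM was 7 against DMSO and 8 against 150 nM, and with DESeq2 3 and 5. DESeq2 also called fewer of all 20402 tested peaks. Against DMSO it called 1999 higher and 1480 lower, where edgeR called 4215 and 3819. Against 150 nM it called 1925 and 1548, where edgeR called 4190 and 3798. The H3K27ac numbers, 1 and 2, were 0 and 1 with peaks below a mean count of 50 removed, 0 and 0 with DESeq2 (8 and 6 member peaks without an adjusted p), and 0 and 1 for peaks that overlap the gene, fewer peaks being tested in the first and last. With only the 4 libraries of the contrast 3 H3K27ac peaks were called against DMSO, and with the contig term 1 and 2. Leaving out 1 library at a time gave 5 to 8 and 6 to 9 H3K4me3 calls and 0 to 3 and 1 to 3 H3K27ac calls. The H3K27ac number against DMSO was 0 without any DMSO or 500 nM library and 3 without either 150 nM library. The comparison of 150 nM with DMSO gave 0 member calls for both marks under every alternative. Scaling by total count moved the split of all called H3K4me3 peaks against DMSO from 4215 higher and 3819 lower to 4767 and 2791, with a shift of the median of 0.03. Apart from the cases explained by fewer peaks tested, the cause was not tested.

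With the replicate number as a block, 8 and 8 H3K4me3 and 3 and 2 H3K27ac member peaks were called at 500 nM against DMSO and 150 nM. The peaks gained were MDM2 for H3K4me3 (0.10, edgeR adjusted p = 0.0498) and, for H3K27ac, the SESN2 start (0.58, edgeR adjusted p = 0.0362) and the CDKN1A peak at 36681887 (0.52, edgeR adjusted p = 0.0224). The numbers are only shared numbers in the labels, and deviations of same-numbered libraries correlated at 0.0047 to 0.049 for H3K4me3 and 0.0026 to 0.13 for H3K27ac.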

Other observations

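Over the 6 H3K4me3 libraries, the gene-end peaks whose log2 CPM followed the MDM2 main peak most closely were at KLHDC9 (Pearson's r = 0.985), at FAM229B and TUBE1 (0.980) and at HSD17B10 (0.970), with 12 of 10793 peaks above 0.95. For CDKN1A they were at OSBPL1A (r = 0.9998), FZD4 (0.9994) and TAMALIN (0.9992), with 931 of 10794 above 0.95. All points share the same 6 libraries and their depth. The log2 fold changes at 500 nM against DMSO were 0.70 at OSBPL1A, 0.84 at FZD4 and 0.97 at TAMALIN.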
